A study of Mus musculus with 8 samples.

Results

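The 10 genes described here encode the core of the death receptor, caspase-8 and necroptosis machinery around *Ripk1*, the gene deleted in this study: the receptors *Tnfrsf1a* and *Fas*, the adaptors *Tradd* and *Fadd*, the kinases *Ripk1* and *Ripk3*, the nucleic acid sensor *Zbp1*, the necroptosis executor *Mlkl*, the protease *Casp8* and its regulator *Cflar*. They were picked by gene symbol, as known parts of this machinery, out of 42748 Ensembl genes in the deposited table, and each symbol matched 1 row. RNA came from CD4+ CD25+ Treg cells, taken from pooled spleen and lymph nodes. The mice were females with the genotype *Ripk1* fl/fl *Foxp3* Cre/wt. In them a knock-in at the X-linked *Foxp3* gene drives YFP and Cre, and random X inactivation leaves each mouse with both kinds of Treg cells. The sorted YFP- libraries are labelled *Ripk1*+/+ and the YFP+ libraries *Ripk1* -/-, with 4 libraries in each group, numbered 21, 46, 48 and 53. All libraries share the floxed *Ripk1* alleles and no mouse received a treatment in the labels. The sources used here do not state the ages of the mice, the floxed exon or whether libraries of equal number came from 1 mouse. The main tests treat the libraries as unpaired. The sources also do not state whether libraries of a group came from separate mice. All p-values therefore reflect variation among these libraries, which may be technical. Expression of the YFP and Cre knock-in differs between the groups together with the loss of Ripk1, and their effects cannot be told apart.

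When TNF binds TNFR1, the product of *Tnfrsf1a*, the receptor recruits TRADD and RIPK1 and signals to NF-κB. If RIPK1 leaves the membrane complex, FADD and caspase-8 can join it and start apoptosis, which the long form of c-FLIP, a product of *Cflar*, holds back. Where caspase-8 is inactive, RIPK1 or ZBP1 can engage RIPK3, which phosphorylates MLKL, and MLKL then breaks the plasma membrane in necroptosis.

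Total counts were 43737313 to 70782679 in YFP- and 29719251 to 55371610 in YFP+ libraries. The YFP+ library 21 stood apart from the rest: 9571 genes had at least 10 counts in it, against 13047 to 16558 in the other 7 libraries, and its log2 CPM correlated with no other library above 0.652. The tests of the members and of the other genes named are therefore given with and without it. The T cell markers were present in all libraries, with a summed level of 4970 to 6061 CPM (counts scaled by sequencing depth and TMM factor) in YFP- libraries and 5386 to 7504 CPM in the others. The 8 Treg markers summed to 3110 to 3489 CPM in YFP- libraries. In the YFP+ libraries 21, 46, 48 and 53 they summed to 3279, 2593, 1974 and 2318 CPM. Of these markers *Foxp3* and *Tnfrsf18* are listed at 0 in all libraries, and none of the *Foxp3* exon bases is free of other annotated genes. Summed markers of B cells ranged over 77.0 to 100.1 CPM for YFP- libraries and 123 to 2104 CPM for YFP+ libraries, with *Ms4a1* at 0 in all libraries. The 10 macrophage and monocyte markers summed to 11.2 to 22.7 and 54.6 to 518 CPM, none of them at 0 in all libraries. The 7 erythroid markers summed to 92.3 to 357 and 292 to 5066 CPM, with *Alas2* at 0 throughout. The B cell, macrophage and erythroid lists were all highest in the YFP+ library 48, and their part in the results below was not tested. In bulk RNA, fewer cells with a transcript and less transcript per cell cannot be told apart.

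None of the 10 members passed the test between YFP+ and YFP- libraries. edgeR's quasi-likelihood test, with an adjusted p under 0.05 over all genes tested, called 0 of the 9 members that passed the filter on low counts, and 0.870% of the 15063 genes tested. At an unadjusted p under 0.05 there were 3 members, *Casp8*, *Fas* and *Cflar*, and 12.6% of all genes tested. A p that misses the threshold does not show that a member was the same in both groups. *Mlkl* did not pass the filter. The median log2 fold change of the 9 members was -0.02, and that of all genes tested was -0.02 as well. Without the YFP+ library 21 all 10 members were tested and again 0 passed in edgeR, where 6.64% of 15832 genes did. Of the 10 members, 5 had an unadjusted p under 0.05, as did 24.8% of all genes tested. *Mlkl*, 1 of these 5, passed the filter there through YFP- libraries alone, so it could only come out lower. DESeq2, run as an alternative, called 1 member over 8 libraries, *Mlkl*, where it called 7.34% of genes. It called 4 members without the YFP+ library 21, *Casp8*, *Cflar*, *Mlkl* and *Tnfrsf1a*, where it called 19.5% of genes.

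**Figure D1:**
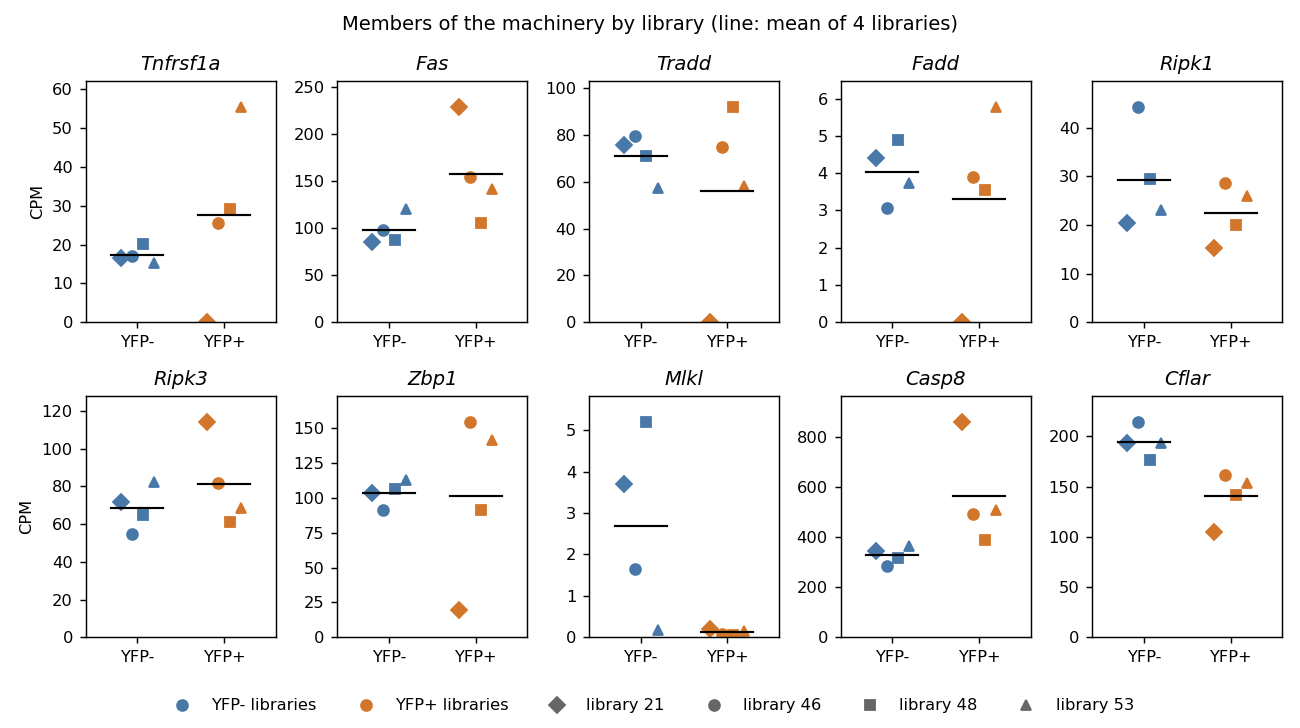
Level in CPM (vertical axes from 0, scaled per gene) of the 10 members in each YFP- (blue) and YFP+ (orange) library; the symbol gives the library number and the line the mean of 4 libraries. *Casp8* lies higher and *Cflar* lower in every YFP+ library, while *Tnfrsf1a*, *Tradd* and *Fadd* are at or near 0 in the YFP+ library 21 alone.

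**Figure D2:**
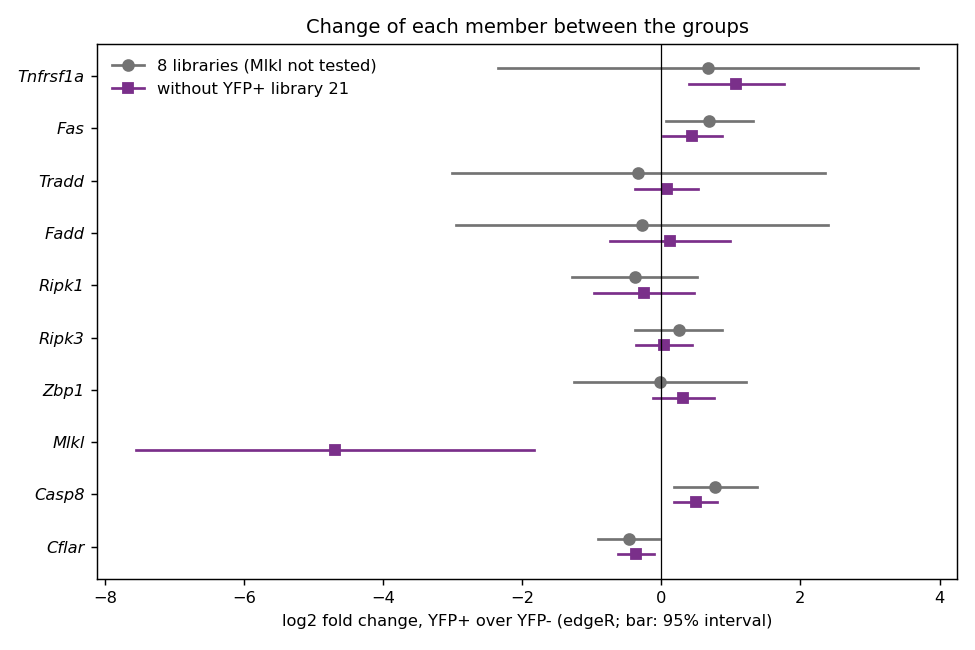
Log2 fold change of each member, YFP+ over YFP-, with its 95% interval from edgeR, over 8 libraries (grey circles) and without the YFP+ library 21 (purple squares). The intervals of *Tnfrsf1a*, *Tradd* and *Fadd* reach beyond 2 on both sides of 0 over 8 libraries and narrow without that library; *Mlkl* was tested only without it.

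*Ripk1*, the targeted kinase, spans 34002363 to 34037147 on the plus strand of chromosome 13 of GRCm38. Its level in the YFP- libraries 21, 46, 48 and 53 was 20.5, 44.3, 29.5 and 23.2 CPM, and the YFP+ libraries of the same numbers had 15.2, 28.7, 19.9 and 26.1 CPM. The groups overlapped, and the YFP+ libraries 46 and 53 lay above the YFP- libraries 21 and 53. The log2 fold change was -0.38 (standard error 0.39, 95% interval -1.29 to 0.52, adjusted p = 0.713 from edgeR), and -0.25 (interval -0.97 to 0.47, adjusted p = 0.668) without the YFP+ library 21. These are counts over the whole gene. A transcript that lacks the floxed part can still be counted, so the level does not check which cells had lost Ripk1. Of the merged *Ripk1* exon bases, 89.8% are free of other annotated genes, *Serpinb6a* among them.

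The 5 genes whose level followed that of *Ripk1* most closely across the 8 libraries were *Ppp6r3*, *Dnmt3a*, *Zhx2*, *Dock2* and *Clint1*. Their root mean square difference from *Ripk1*, on mean-centred log2 CPM, was 0.17 to 0.22, beside a median of 0.85 over 8213 genes compared. *Ppp6r3*, which encodes a regulatory subunit of protein phosphatase 6, measured 152, 217, 180 and 128 CPM in YFP- and 90.3, 187, 110 and 157 CPM in YFP+ libraries, highest in the YFP- library 46 and lowest in the YFP+ library 21, as *Ripk1* was. Among the other members, *Cflar* was the nearest to *Ripk1*, with a difference of 0.29 and rank 46, and *Ripk3* ranked 2746. All points share their libraries, so library depth and quality enter the likeness.

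Of the receptors, *Tnfrsf1a*, which encodes TNFR1, lies on chromosome 6 from 125349362 to 125362484. Its level in the YFP- libraries 21, 46, 48 and 53 was 16.5, 17.0, 20.3 and 15.2 CPM. In the YFP+ libraries it had 0 counts in library 21, where 3 counts correspond to 0.142 CPM, and 25.4, 29.1 and 55.4 CPM in libraries 46, 48 and 53. Apart from library 21, each YFP+ library lay above each YFP- library. The share of all genes tested that did so was not counted, so this is not read as particular to *Tnfrsf1a*. Without library 21, 24.8% of all genes tested had an unadjusted p under 0.05 in edgeR. With 4 against 3 libraries a two-sided exact permutation test cannot reach a p below 0.0571. The log2 fold change was 0.67 (interval -2.35 to 3.70, adjusted p = 0.869 from edgeR) over 8 libraries and 1.08 (interval 0.40 to 1.76, adjusted p = 0.0720) without the YFP+ library 21. DESeq2 gave an adjusted p = 0.00693 in the latter setting and 0.853 over 8 libraries. The value over 8 libraries also rested on the YFP+ library 53, the highest. Without it, but with library 21 kept at 0 counts, the log2 fold change was 0.07 (adjusted p = 0.984 from edgeR). No fit left out the YFP+ libraries 21 and 53 together, so this value does not bear on the 1.08.

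*Fas*, a death receptor that binds FADD directly, lies on chromosome 19 from 34290666 to 34327772. It measured 84.9, 97.8, 87.2 and 121 CPM in YFP- and 229, 155, 106 and 142 CPM in YFP+ libraries 21, 46, 48 and 53. The highest YFP- library lay above the YFP+ library 48 alone. Its log2 fold change was 0.69 (interval 0.07 to 1.31, adjusted p = 0.355 from edgeR), and 0.45 (interval 0.02 to 0.87, adjusted p = 0.181) without the YFP+ library 21. The two-sided exact permutation test on log2(CPM + 1) gave p = 0.0571, where 4 against 4 libraries can reach 0.0286. *Fas* was lowest among YFP+ libraries in library 48, the library with the most transcripts of B cells, macrophages and erythroid cells, and any link was not tested. The count ratio of *Tnfrsf1a* to *Fas* was 0.194, 0.174, 0.232 and 0.126 in YFP- and 0, 0.164, 0.276 and 0.391 in YFP+ libraries, and the groups overlapped.

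The adaptor *Tradd*, which links TNFR1 to RIPK1, lies on chromosome 8 from 105258286 to 105264609. YFP- libraries had 75.4, 79.3, 71.0 and 57.1 CPM, and the YFP+ libraries 46, 48 and 53 had 74.6, 91.9 and 58.2 CPM, within an overlapping range. In the YFP+ library 21 there were 2 counts. Its log2 fold change was -0.33 (interval -3.01 to 2.35, adjusted p = 0.932 from edgeR), and without that library 0.08 (interval -0.38 to 0.53, adjusted p = 0.846).

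*Tradd* was not alone in this library. Of 4089 genes whose mean in YFP- libraries was within 2-fold of that of *Tradd*, 19.8% had less than 1% of that mean in the YFP+ library 21, and 0.0245% to 0.294% in the other YFP+ libraries. At the level of *Tnfrsf1a* the share was 34.0% of 3510 genes in library 21 and 0.484% to 4.30% in the others. No gene of these groups was that low in any YFP- library, but the YFP- libraries set both the choice of genes and the mean. The shares therefore compare the YFP+ libraries with each other and not the 2 kinds of cells.

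*Fadd*, the adaptor that brings caspase-8 to death receptors, lies on the minus strand of chromosome 7 from 144577318 to 144582463. It measured 4.40, 3.06, 4.90 and 3.74 CPM in YFP- libraries, 0 in the YFP+ library 21, and then 3.90, 3.54 and 5.78 CPM for the YFP+ libraries numbered 46, 48 and 53. The groups overlapped, and the log2 fold change was -0.28 (interval -2.96 to 2.39, adjusted p = 0.942 from edgeR), or 0.12 (interval -0.73 to 0.98, adjusted p = 0.869) without library 21. Its count is uncertain: 9.22% of its exon bases are free of other annotated genes, because *Faddos* overlaps it, although 93.9% are free of the exons of other genes, and the sources used here do not state whether the counting used strand.

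*Ripk3*, the kinase that phosphorylates MLKL, lies on chromosome 14 from 55784995 to 55788865. It measured 71.7, 54.6, 64.9 and 82.6 CPM in YFP- and 114, 81.7, 61.0 and 68.6 CPM in YFP+ libraries. The groups overlapped, with only the YFP+ library 21 above all YFP- libraries. The log2 fold change was 0.25 (interval -0.38 to 0.88, adjusted p = 0.735 from edgeR), and 0.04 (interval -0.37 to 0.44, adjusted p = 0.924) without library 21. *Ripk3* had more counts than *Ripk1* in all 8 libraries, with a count ratio of 3.50, 1.23, 2.20 and 3.57 in YFP- and 7.51, 2.84, 3.06 and 2.63 in YFP+ libraries.

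*Zbp1*, a sensor of Z-form nucleic acids that engages RIPK3 without TNF, lies on chromosome 2 from 173206612 to 173218923. It measured 104, 91.0, 106 and 113 CPM in YFP- and 19.3, 155, 91.0 and 142 CPM in YFP+ libraries. The YFP+ libraries lay on both sides of the YFP- range. The log2 fold change was -0.02 (interval -1.26 to 1.21, adjusted p = 0.988 from edgeR) over 8 libraries and 0.31 (interval -0.12 to 0.75, adjusted p = 0.349) without library 21.

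*Mlkl*, the pore-forming executor of necroptosis, lies on chromosome 8 from 111311797 to 111338177, and all of its exon bases are free of other annotated genes. It had 280, 132, 252 and 12 counts in the YFP- libraries 21, 46, 48 and 53, or 3.71, 1.65, 5.21 and 0.166 CPM. In the YFP+ libraries of the same numbers it had 4, 4, 3 and 7 counts, or 0.190, 0.0890, 0.0577 and 0.160 CPM. Thus 3 of the 4 YFP- libraries stood far above all YFP+ libraries, and the YFP- library 53 lay within the YFP+ range.

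*Mlkl* averaged 2.68 ± 2.22 CPM (SD, n = 4) over the YFP- group and 0.124 ± 0.0612 CPM (SD, n = 4) over the YFP+ group, which is 21.6-fold lower, or 26.2-fold lower without the YFP+ library 21. The two-sided exact permutation test on log2(CPM + 1) gave p = 0.0571. DESeq2 put the log2 fold change at -4.49 with an adjusted p = 0.000265, the one member it called over 8 libraries. edgeR without a filter on low counts gave -4.52 with an adjusted p = 0.192. Without the YFP+ library 21, which let the gene pass the filter, edgeR gave -4.69 (interval -7.55 to -1.83, adjusted p = 0.0659). There it passed through YFP- libraries alone, with 3 to 7 counts in each YFP+ library, so a test could only come out lower. The call thus depended on the tool. In the 12 settings in which *Mlkl* was tested the log2 fold change was between -5.01 and -3.66. It failed the filter, and so was not tested in edgeR, without the YFP- library 21, 46 or 48 alone. Those libraries hold most of its counts, so the range does not cover leaving out each alone. Without each in turn the difference of group means of log2(CPM + 1), -1.46 over 8 libraries, was -1.25, -1.53 and -1.12.

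The count ratio of *Mlkl* to *Ripk3* was 0.0517, 0.0302, 0.0803 and 0.00201 in YFP- and 0.00166, 0.00109, 0.000946 and 0.00234 in YFP+ libraries. In this ratio, too, the YFP- library 53 was the only YFP- library within the YFP+ range. Its *Ripk3* level was the highest of the YFP- libraries.

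*Casp8* encodes the initiator protease of death receptor apoptosis, which also restrains necroptosis. It measured 344, 284, 317 and 366 CPM in YFP- and 861, 493, 389 and 508 CPM in YFP+ libraries 21, 46, 48 and 53. All YFP+ libraries lay above all YFP- libraries (p = 0.0286 in a two-sided exact permutation test on log2(CPM + 1), and no smaller p is possible with 4 against 4), as was the case for 7.83% of the genes tested. In edgeR its log2 fold change was 0.78 (standard error 0.26, interval 0.19 to 1.37, adjusted p = 0.287 from edgeR), and 0.49 (standard error 0.13, interval 0.19 to 0.80, adjusted p = 0.0682) without library 21. Among YFP+ libraries *Casp8* was lowest in library 48, the one with the most transcripts of B cells, macrophages and erythroid cells, where *Tradd* was highest. Any link was not tested.

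*Cflar*, which encodes the c-FLIP proteins that bind FADD and caspase-8, measured 193, 215, 177 and 194 CPM in YFP- and 105, 162, 142 and 154 CPM in YFP+ libraries. All YFP+ libraries lay below all YFP- libraries (p = 0.0286, two-sided exact permutation test), as was the case for 10.6% of the genes tested. In edgeR its log2 fold change was -0.47 (standard error 0.19, interval -0.91 to -0.03, adjusted p = 0.374 from edgeR), and -0.36 (standard error 0.11, interval -0.62 to -0.10, adjusted p = 0.0969) without library 21. Neither gene passed the test over all genes in edgeR, and each did in DESeq2 without library 21, with adjusted p = 0.0112 for *Casp8* and 0.00543 for *Cflar*.

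Within a library, the ratio of *Cflar* to *Casp8* counts does not depend on scaling. It was 0.562, 0.755, 0.558 and 0.529 in YFP- and 0.122, 0.328, 0.365 and 0.303 in YFP+ libraries, so that the groups did not overlap. With *Casp8* higher and *Cflar* lower in every YFP+ library, this separation was bound to follow and is not a further result. The mean ratio was 0.601 ± 0.104 (SD, n = 4) over the YFP- group and 0.279 ± 0.108 (SD, n = 4) over the YFP+ group, 2.15-fold lower. Without the YFP+ library 21 the YFP+ mean was 0.332 ± 0.0312 (SD, n = 3), 1.81-fold lower. No test is attached, since the pair was compared with the results of these genes known.

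**Figure D3:**
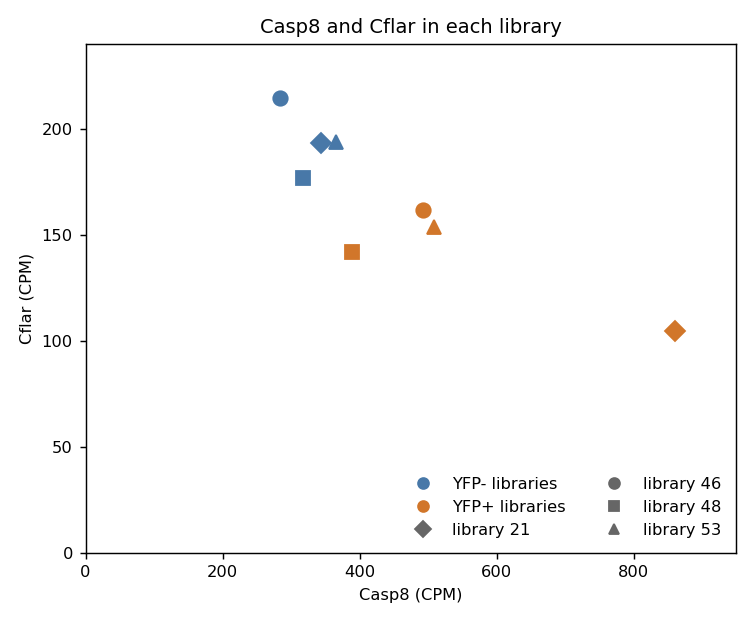
*Cflar* against *Casp8* in each of the 8 libraries, both in CPM on axes from 0; colour gives the group and symbol the library number. The 4 YFP- libraries lie at 284 to 366 CPM of *Casp8* and 177 to 215 CPM of *Cflar*, and the 4 YFP+ libraries lie to the right of and below all of them.

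*Cflar* and *Casp8* are neighbours on the plus strand of chromosome 1 of GRCm38, *Cflar* from 58711508 to 58758884 and *Casp8* from 58795374 to 58847503, with 36489 bases between them. The 250 bases before the start site of each in RefSeq (GRCm38.p6) are printed, because these neighbours differed from the YFP- libraries in opposite directions in every YFP+ library. The first covers chr1:58711241-58711490 and the second chr1:58802252-58802501, both on the plus strand. The second window lies inside the longer span that GENCODE gives *Casp8*. Capitals mark matches of TATAAA on either strand.
Cflar: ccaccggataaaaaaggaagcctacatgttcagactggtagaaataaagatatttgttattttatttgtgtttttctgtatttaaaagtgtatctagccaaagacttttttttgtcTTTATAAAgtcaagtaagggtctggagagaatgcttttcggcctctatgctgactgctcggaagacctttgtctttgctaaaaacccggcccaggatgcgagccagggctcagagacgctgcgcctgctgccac
Casp8: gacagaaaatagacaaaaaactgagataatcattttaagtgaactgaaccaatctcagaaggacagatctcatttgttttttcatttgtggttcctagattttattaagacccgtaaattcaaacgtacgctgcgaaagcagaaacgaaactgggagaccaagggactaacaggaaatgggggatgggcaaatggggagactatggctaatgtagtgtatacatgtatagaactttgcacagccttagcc
The *Cflar* window holds a match on each strand, and these overlap, from 134 and 132 bases before the start site. The *Casp8* window holds none, and 12.4% of all 32851 RefSeq windows hold one. The windows have 42.8% and 39.6% G and C, beside a median of 52.4% over all windows, and 7 and 5 CpG, beside a median of 6. RefSeq windows were at hand for 8 of the 10 members, 9 windows in all. None of these held the NF-κB consensus, which 7.25% of all windows hold, while the AP-1 motif TGAGTCA, in 4.46% of all windows, was found for *Fas*. These matches on both strands are a description of letters and not of bound sites.

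Per kilobase of merged exons, *Casp8* had the highest level in YFP- libraries, 113 ± 12.2 CPM per kb (SD, n = 4). *Fas* followed with 47.3 ± 7.91, *Tradd* with 37.9 ± 5.18, *Ripk3* with 29.9 ± 5.14 and *Zbp1* with 29.3 ± 2.58 CPM per kb. The library ranges of neighbours in this order overlapped from *Fas* to *Zbp1*, so adjacent places in this stretch are not resolved, although *Fas* lay wholly above *Ripk3* and *Zbp1*. *Cflar* had 15.4 ± 1.22, *Tnfrsf1a* 6.65 ± 0.830 and *Ripk1* 3.52 ± 1.28 CPM per kb, each with a range apart from its neighbours. *Mlkl*, with 1.17 ± 0.966, and *Fadd*, with 1.03 ± 0.205 CPM per kb, overlapped. The targeted kinase was thus among the 3 members with the lowest level per length. The order depends on the length used: with the longest transcript *Cflar* reached 29.6 CPM per kb, in a range that overlapped that of *Zbp1*. With the same counts over the 360 exon bases free of other genes, *Fadd* reached 11.2 CPM per kb, above *Tnfrsf1a*.

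**Figure D4:**
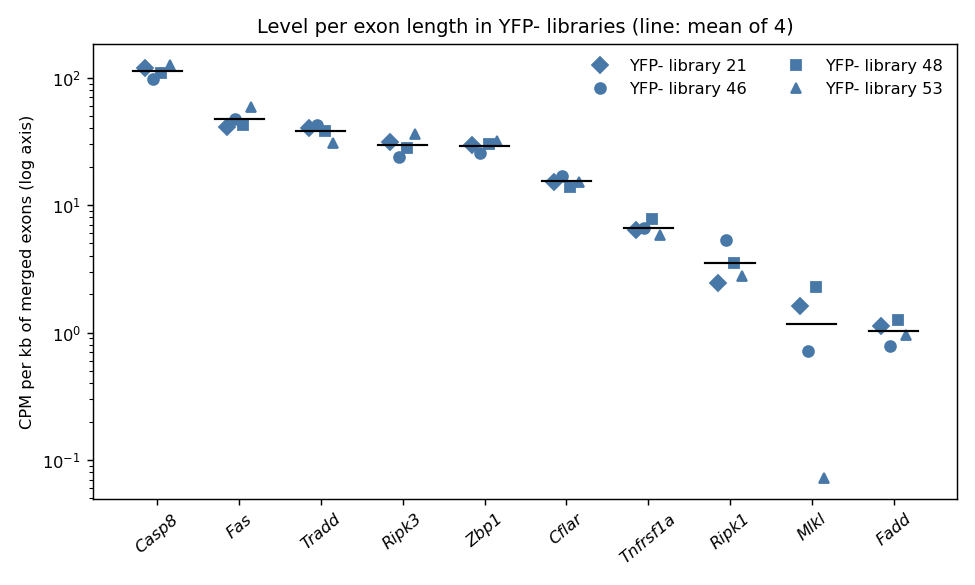
Level of each member per kilobase of merged exons in the 4 YFP- libraries (CPM per kb, log axis), ordered by the mean, which the line marks. The levels fall from 113 CPM per kb for *Casp8* to 1.03 for *Fadd*, and *Mlkl* in library 53 lies far below its other 3 libraries.

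In the 4 YFP+ libraries, library 21 included, *Casp8* was again the highest member per length, with 195 ± 71.1 CPM per kb (SD, n = 4), and *Mlkl* the lowest, with 0.0539 ± 0.0266 CPM per kb (SD, n = 4). *Cflar* measured 11.1 ± 1.99 and *Ripk1* 2.70 ± 0.730 CPM per kb (SD, n = 4).

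Of 73 other genes of the pathway, in 4 lists, 65 were tested over 8 libraries. *Tnfsf15* passed as lower, 0 were higher and 64 did not pass. Without the YFP+ library 21, 67 were tested, of which 5 were lower and 1 was higher with an adjusted p under 0.05 from edgeR. That is 8.96% of them, beside 6.64% of all genes tested in that setting, so nothing particular to these lists is read from the count.

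Among the death ligands and other death receptors, 8 of 12 were tested, and all 8 had a log2 fold change below 0, with a median of -1.31 beside -0.02 over all genes tested. For each of these 8 genes the YFP+ library 21 had the lowest or joint lowest YFP+ level. Without library 21 the median of 10 tested genes was -0.62, beside -0.01 over all genes tested, and 2 passed as lower. Whether the list moved as a set was not tested. *Tnfsf15*, which encodes the ligand TL1A, had 104, 121, 65 and 30 counts in the YFP- libraries 21, 46, 48 and 53, or 1.38, 1.51, 1.34 and 0.414 CPM, and 0 counts in all YFP+ libraries. Against a floor of 3 counts in each YFP+ library it was at least 13.8-fold lower (adjusted p = 0.0394 from edgeR over 8 libraries and 0.0197 without library 21). It passed the filter through the YFP- libraries alone, so a call could only be lower. The counts of lower genes given for the lists include it and are to be read with that limit. The call was lost when any one YFP- library, or the YFP+ library 46 or 53, was left out. It was also lost without a low-count filter, with at least 5 CPM in 4 libraries and with library number as a replicate block.

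*Tnfrsf1b*, which encodes TNFR2, a TNF receptor without a death domain that is abundant on Treg cells, measured 139, 186, 285 and 180 CPM in YFP- and 3.70, 90.9, 84.4 and 85.6 CPM in YFP+ libraries. The YFP+ libraries lay below the YFP- libraries without overlap, as was the case for 10.6% of the genes tested. It did not pass over 8 libraries (log2 fold change -1.57, adjusted p = 0.443 from edgeR) and fell without library 21 (-1.19, standard error 0.24, adjusted p = 0.0353). *Tnfrsf1a*, the other TNF receptor, had a log2 fold change of 1.08 in that setting. The other 2 genes of the list with the highest mean CPM were *Tnfrsf25*, the receptor of TL1A, at -0.92 on the log2 scale (edgeR adjusted p = 0.471), and the ligand *Lta*, with -0.51 (adjusted p = 0.888). Without library 21 they stood at -0.60 and -0.10 (edgeR adjusted p = 0.0639 and 0.708), and *Lta* measured 0.0948 CPM in library 21, and 81.5, 112 and 87.4 CPM in YFP+ libraries 46, 48 and 53.

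Of the RHIM partners and necroptosis regulators, 18 of 21 were tested and 0 passed in either setting, with a median log2 fold change of 0.11 over 8 libraries and 0.04 without library 21. The 3 with the highest mean CPM were the chaperones *Hsp90ab1* and *Hsp90aa1* and the ESCRT ATPase *Vps4b*, with log2 fold changes of 0.79, 1.15 and 0.72 over 8 libraries and 0.15, 0.33 and 0.40 without library 21.

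All 14 kinases that phosphorylate Ripk1 and their adaptors were tested, and 0 passed over 8 libraries, with a median log2 fold change of -0.04. *Ikbkb*, which encodes the NF-κB activating kinase IKK2, measured 298, 279, 254 and 208 CPM in YFP- and 0.616, 101, 106 and 124 CPM in YFP+ libraries. All YFP+ libraries were below all YFP- libraries, as was the case for 10.6% of the genes tested. It did not pass over 8 libraries (log2 fold change -1.64, adjusted p = 0.529 from edgeR) and fell without library 21 (-1.24, standard error 0.15, adjusted p = 0.0125). Of its exon bases 77.8% are free of other annotated genes. The adaptors *Tank* and *Azi2* had log2 fold changes of 0.47 and 0.56 over 8 libraries (adjusted p = 0.662 and 0.594 from edgeR), and of the opposite sign, -0.14 and -0.06, without library 21 (adjusted p = 0.625 and 0.803).

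Of the other caspases, their adaptors and substrates, 25 of 26 were tested. None passed over 8 libraries, with a median log2 fold change of -0.10, and 3 passed without library 21, with a median of -0.31. *Casp4*, which encodes the inflammatory caspase-11, fell in that setting, from 28.0, 29.8, 33.5 and 28.5 CPM in YFP- to 9.17, 7.52 and 3.23 CPM for the YFP+ libraries 46, 48 and 53 (-2.18 on the log2 scale, standard error 0.37, edgeR adjusted p = 0.0232). It had 0 counts in the YFP+ library 21, and over 8 libraries its adjusted p was 0.424.

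*Cycs*, which encodes cytochrome c, rose without library 21, from 135, 115, 120 and 147 CPM in YFP- to 191, 180 and 179 CPM in YFP+ libraries (0.50 on the log2 scale, standard error 0.11, edgeR adjusted p = 0.0437). In library 21 it measured 813 CPM, and over 8 libraries the adjusted p was 0.349. *Casp8ap2*, which encodes a nuclear protein that binds caspase-8, fell without library 21 (log2 fold change -0.59, standard error 0.13, adjusted p = 0.0419 from edgeR). Its level was 61.5 CPM or more in each YFP- library against 47.8, 37.8 and 43.2 CPM for the YFP+ libraries 46, 48 and 53, and library 21 stood on the other side with 180 CPM, so that over 8 libraries the log2 fold change was 0.27. Also among the highest in mean CPM, *Casp6*, an executioner caspase, had log2 fold changes of 1.48 over 8 libraries and 0.65 without library 21 (adjusted p = 0.318 and 0.0549 from edgeR). For *Xiap*, a caspase inhibitor, the sign turned, from 0.70 over 8 libraries to -0.37 without library 21 (adjusted p = 0.676 and 0.535 from edgeR).

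**Figure D5:**
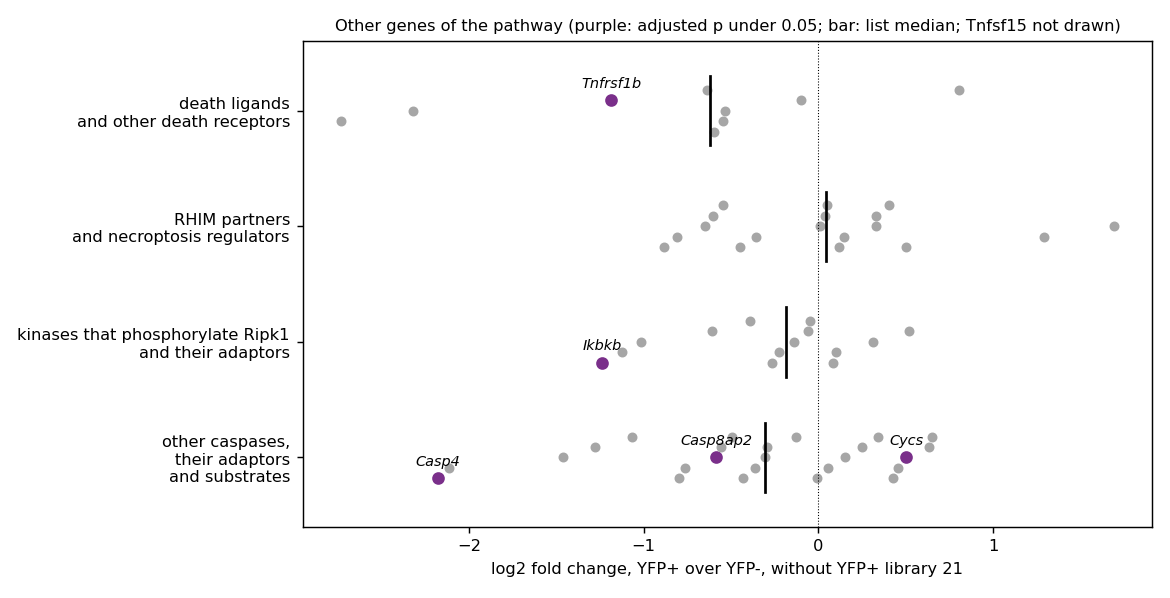
Log2 fold change, YFP+ over YFP- without the YFP+ library 21, of the tested genes of 4 pathway lists; purple points have an adjusted p under 0.05 from edgeR, and the black bar is the list median. *Tnfrsf1b*, *Ikbkb*, *Casp4* and *Casp8ap2* lie left of 0 and *Cycs* right of it; *Tnfsf15*, with 0 counts in every YFP+ library, is not drawn.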

How the data were processed

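Bulk RNA-seq of CD4+ CD25+ cells sorted by YFP gave 4 YFP- and 4 YFP+ libraries. The table that the authors deposited holds raw whole-number counts, with genes in rows and libraries, named as in the labels, in columns. The submitters' processing notes name Trim Galore, STAR and mm10, with the versions, counting tool, annotation and use of strand not given in the sources used here. Members were rows whose symbol was listed.

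The groups were compared with the quasi-likelihood F test of edgeR 4.0.16 under R 4.3.3, with condition as the only term, TMM factors and filterByExpr (at least 10 counts, and 15 in total), and p-values were adjusted over all genes tested by Benjamini-Hochberg at 0.05. Standard errors were derived from F (log2 fold change over its square root). CPM use TMM-scaled library sizes. Exact permutation tests (scipy 1.17.1) on log2(CPM + 1) were two-sided. DESeq2 1.42.0 and the alternatives in the closing section were also run, and the fits were tested on simulated data. The members and lists were chosen with earlier results of these data known.

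Named are all members, in each pathway list the genes past the threshold over 8 libraries or without the YFP+ library 21 and the 3 with the highest mean CPM, and the 5 genes most like *Ripk1* among those whose mean log2 CPM reached 3. GENCODE M21 (GRCm38), in which 99.5% of the identifiers were found, gave coordinates and exon lengths. The NF-κB consensus was searched by its name's standard form, on both strands. Counts of 3 correspond to 0.0374 to 0.142 CPM per library, and such floors cover counting error only.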

Additional observations from a re-analysis of the deposited data

Results flagged for a closer look

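In 28 groups of 4 libraries (10 members and 4 ratios, in YFP- and YFP+ libraries), 3 had a library far from the others by Dixon's ratio (the gap to the nearest library over the whole range, against the 95% critical value); chance gives about 1 in 20 groups, or 1.4 here. *Tradd* was lowest in the YFP+ library 21, at 0.131 on the log2(CPM + 1) scale (ratio 0.899). The count ratio of *Ripk3* to *Ripk1* was highest in the YFP+ library 21, at 7.51 (ratio 0.912). The count ratio of *Cflar* to *Casp8* was highest among YFP- libraries in library 46, at 0.755 (ratio 0.852), which lies on the far side from the YFP+ libraries.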

How the results depend on the processing

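No member passed the test in any edgeR setting, and the direction of *Ripk1*, *Ripk3*, *Casp8*, *Cflar* and *Fas* was kept in all 23 alternatives, whereas DESeq2 called 1 member over 8 libraries and 4 without the YFP+ library 21. The count of genes called, 131, was 1308 with DESeq2, 10 without a filter, 9 with at least 5 CPM in 4 libraries, 0 with the library number as a replicate block and 0 without both libraries of number 46, 48 or 53. It was 0 to 1052 when each library was left out, and 0 without any one YFP- library or without the YFP+ library 46 or 53. The count of other pathway genes, 1, became 4 with DESeq2, 0 without a filter, with the stricter filter, with the replicate block and without both libraries of 46, 48 or 53, 2 without both of 21, and 0 to 6 when each library was left out. Settings added after seeing the data, all without the YFP+ library 21, gave 0 and 0 genes with the replicate block, 969 and 6 with RLE factors and 3175 and 17 with DESeq2.

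Members near 0 change turned sign. *Zbp1* gave 0.006 with upper-quartile factors, 0.321 and 0.035 without both libraries of 21 and of 48, and -0.30 to 0.31 over single libraries left out. *Fadd* and *Tradd* gave 0.17 and 0.11 without both of 21, and -0.70 to 0.12 and -0.67 to 0.076 over single libraries. Without the YFP+ library 21, *Fadd*, *Tradd* and *Zbp1* gave 0.160, 0.092 and 0.280 with the replicate block, 0.141, 0.091 and 0.328 with RLE factors and 0.136, 0.084 and 0.320 with DESeq2. *Tnfrsf1a* gave -0.053 with the replicate block, which also moved the median of all genes to -0.32, and the *Tnfrsf1a* to *Fas* ratio changed by -0.31 to 0.61 on the log2 scale over single libraries left out. The cause was not tested. Equal library numbers deviated together at 0.0489 to 0.140, not above 0.1 for every number, so they were not taken as pairs. Different numbers gave -0.1195 to 0.0677, a lower range that overlaps, so whether equal numbers are pairs was not settled. The low counts of *Mlkl* (3 to 7 per YFP+ library) and *Fadd* limit their precision.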
